A study of Mus musculus with 12 samples.

Results

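B cells were followed in brain tissue of DKO and Con mice through 8 genes that mark them: Ms4a1, Cd79a, Cd79b, Spib, Cxcr5, Fcrla, Fcmr and Cd22. The array design carries 12 probes under these 8 names, out of 37325 gene names in all, and every one of them is described. The genes were selected on the DKO and Con values of these same arrays, so their differences between DKO and Con are given as a description, with no test. Tests are kept for the difference between regions and for B-cell genes outside the 8.

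RNA came from basal forebrain and cerebral cortex of 6 mice, 3 DKO and 3 Con, aged 2 months, and each mouse gave both regions, which makes 12 arrays in 4 groups of 3. DKO mice carried ChatCre and were Psen2-/-, and Con mice were Cre-negative and Psen2+/-. Both genotypes were also homozygous for a floxed allele of another gene, deleted only where Cre is active, which with ChatCre means cholinergic neurons, whereas Psen2 is missing from every cell of a DKO mouse. DKO and Con thus differ in Cre, in Psen2 dose and in that deletion at once. Psen2 itself averaged -1.52 ± 0.31 in DKO and 0.35 ± 0.09 in Con basal forebrain (SD, n = 3 each), and -1.65 ± 0.06 in DKO and 0.46 ± 0.04 in Con cortex. A level here is the log2 signal of a probe minus the 75th percentile of its array, so 0 is that percentile and negative levels are dimmer probes.

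The arrays of a group correlated at 0.985 to 0.995, and 70.3% to 76.1% of spots on an array were well above background by the scanner's own flag. Chat, the acetylcholine-synthesizing enzyme that marks cholinergic neurons, read -0.08, 0.26 and -0.04 in DKO basal forebrain, against -2.33, -2.35 and -1.66 in DKO cortex. Slide 1 held the 6 basal forebrain arrays together with cortex of DKO mice 1 and 2, and slide 2 held cortex of DKO mouse 3 and of the 3 Con mice. All mice were labelled male, but DKO mice 1 and 3 had Xist signal (-1.89 and -1.53 in basal forebrain) and no Y-linked signal (Ddx3y at -8.75 and -8.99), whereas DKO mouse 2 and the Con mice read as males. Results are therefore also given for DKO mouse 2 alone against Con.

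B cells are the lymphocytes that make antibodies. Each carries a membrane immunoglobulin, the B-cell receptor, whose signal is passed inside by a pair of partner chains, and other surface proteins, CD22 among them, tune that signal. Healthy brain tissue holds few B cells: they are found mainly in blood, in the meninges that wrap the brain and in the bone marrow of the skull. In a bulk sample, more B cells and more RNA per B cell cannot be told apart.

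Ms4a1 and Cd22 were each read by probes that disagreed, so their probe sequences are shown first, with that of Cd79b, a probe above background on every array. Each line gives bases 1 to 30 of a 60-base probe, 5′ to 3′, as the scanner files list it, and capitals mark tandem copies of CCAA.
Ms4a1 probe A_55_P2802151 (chr19:11325409-11325468, mm9, minus strand): cagaaatgtaatgggttcccagatctcaaa
Ms4a1 probe A_66_P120649 (chr19:11324334-11324393, mm9, minus strand): ccgctatgcctggagaggatggggaggtgg
Cd22 probe A_55_P2016004 (chr7:31651249-31651308, mm9, minus strand): gaaaaatgaaaaaCCAACCAACCAACCAAa
Cd22 probe A_51_P448140 (chr7:31651590-31651649, mm9, minus strand): ggaggatgagagcatccattactcagagct
Cd79b probe A_51_P342652 (chr11:106172780-106172839, mm9, minus strand): agagacttgttggaatctgcaaatggactc
The first Ms4a1 probe is annotated to NM_007641 and the second to the Ensembl transcript ENSMUST00000169159. Of the 60 bases of the repeat-bearing Cd22 probe, 29 are A (48.3%), against 14 (23.3%) in the other Cd22 probe shown.

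Read from its brightest probe, each of 6 genes was higher in every DKO array than in every Con array of the same region, in both regions: Ms4a1, Cd79b, Spib, Cxcr5, Fcrla and Fcmr. Cd79a separated in basal forebrain only and Cd22 in neither region. That is 7 of 8 in basal forebrain and 6 of 8 in cortex. Among all genes that entered the comparisons, DKO lay wholly above Con for 4.63% in basal forebrain, 8.86% in cortex and 1.12% in both regions, and since DKO against Con values chose the 8, nothing is read from the contrast with those shares. The median difference over all 8 was 2.97 on the log2 scale in basal forebrain and 2.58 in cortex, beside 0 and -0.05 over all genes. With the genes dim in Con set at the lower bounds of their folds (for Cxcr5 in cortex a figure that is no strict bound), the medians are 2.03 and 1.04. DKO mouse 2 alone gave medians of 2.95 and 2.48.

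**Figure D1:**
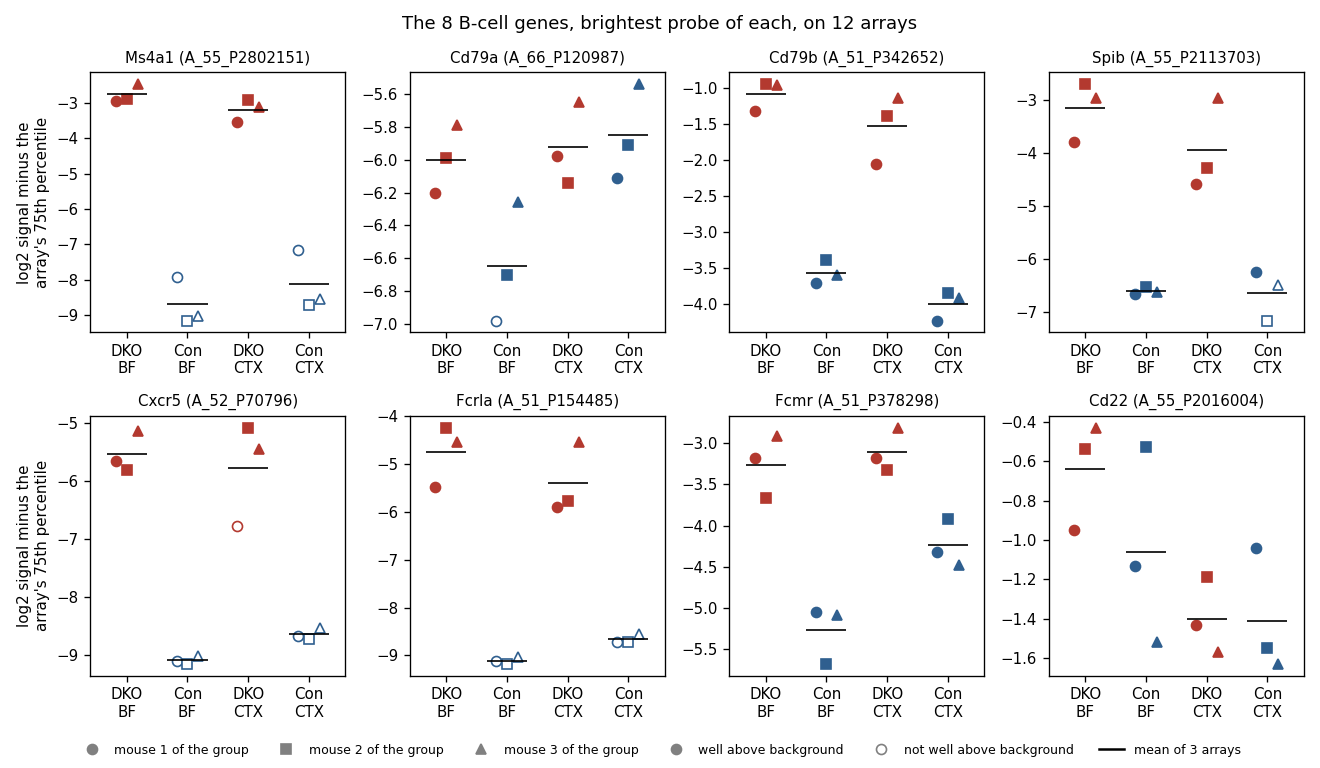
Level of the 8 B-cell genes (log2 signal minus the array's 75th percentile, brightest probe of each) on the 12 arrays, by genotype and region (BF, basal forebrain; CTX, cortex). Symbols stand for the mouse of a group, open symbols for signals not well above background and bars for means. Ms4a1, Cxcr5 and Fcrla have only open symbols in Con, and Cd22 overlaps between genotypes in both regions.

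The chains that carry the receptor's signal were read by 1 probe each, and only 1 of them separated clearly. Cd79b, the beta partner chain, read -1.32, -0.95 and -0.96 in DKO basal forebrain, against -3.71, -3.39 and -3.60 in Con. In cortex it read -2.06, -1.39 and -1.14 in DKO, against -4.23, -3.85 and -3.92 in Con. All 12 values were well above background, and the lowest DKO value lay 2.07 above the highest Con value in basal forebrain and 1.79 above it in cortex. The means differed by 2.49 (SE 0.15), or 5.62-fold, in basal forebrain and by 2.47 (SE 0.30), or 5.53-fold, in cortex. DKO mouse 2 alone lay 2.62 and 2.61 above Con.

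Cd79a, the alpha partner chain, did not follow Cd79b. It read -6.20, -5.99 and -5.79 in DKO basal forebrain, against -6.98, -6.70 and -6.26 in Con, a difference of 0.65 (SE 0.24) with a gap of 0.06 between the groups. In cortex the levels were -5.98, -6.14 and -5.65 in DKO, against -6.11, -5.91 and -5.54 in Con, and the groups overlapped (difference -0.07, SE 0.22). Its probe, A_66_P120987, covers an interval of 258 bases on chromosome 7 (chr7:25684357-25684614, mm9) with 60 bases of sequence, so its match is split, as across a splice junction.

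Of the surface proteins, Ms4a1 encodes CD20. Its probe A_55_P2802151 read -2.94, -2.90 and -2.48 in DKO basal forebrain, against -7.91, -9.15 and -9.01 in Con. Levels in cortex were -3.56, -2.92 and -3.12 in DKO, against -7.16, -8.71 and -8.53 in Con. Every DKO array was well above background and no Con array was, so only a lower bound on the fold can be given: at least 16.3-fold higher in DKO basal forebrain and at least 8.88-fold in DKO cortex. Such bounds set the DKO mean against, for each Con array, the dimmest probe called well above background or the probe's own value, whichever is higher.

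The other Ms4a1 probe, A_66_P120649, did not separate the genotypes. It read -5.41, -6.09 and -5.98 in DKO basal forebrain, against -6.15, -5.91 and -6.52 in Con. In cortex it read -6.62, -6.61 and -5.37 in DKO, against -6.23, -6.48 and -5.67 in Con. Ms4a1 was thus separated by 1 of its 2 probes.

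Cd22, a sialic acid-binding receptor that damps B-cell receptor signalling, had 4 probes and no shared pattern. The brightest, A_55_P2016004, read -0.95, -0.54 and -0.43 in DKO basal forebrain, against -1.13, -0.53 and -1.52 in Con, and overlapped in cortex too (difference 0.01, SE 0.21). Probe A_51_P448140 read -5.56, -5.94 and -5.30 in DKO basal forebrain, against -7.37, -6.64 and -6.38 in Con, with no overlap and a difference of 1.20 (SE 0.35). In cortex the same probe read -6.30, -5.56 and -6.02 in DKO, against -6.63, -8.04 and -6.15 in Con, where the groups overlapped. Probe A_55_P2163795 differed by -0.31 (SE 0.30) in basal forebrain and -0.93 (SE 0.70) in cortex, with overlap in both, and A_52_P466268 was well above background on no array.

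**Figure D2:**
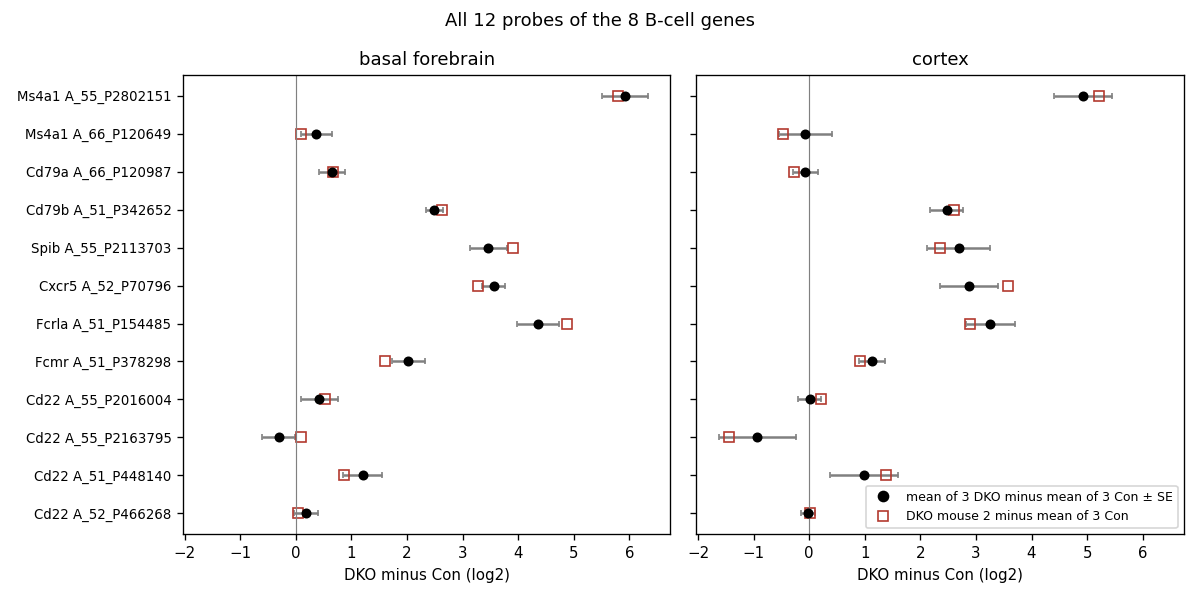
DKO minus Con difference on the log2 scale for all 12 probes, in basal forebrain and cortex. Black points are differences of means of 3 arrays with their SE, and red squares set DKO mouse 2 alone against the 3 Con mice; for the first Ms4a1 probe, Cxcr5 and Fcrla the Con signal was not well above background. Probes of the same gene part for Ms4a1 and Cd22.

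Both Fc receptor-related genes separated in both regions. Fcmr, the receptor for IgM, read -3.18, -3.67 and -2.91 in DKO basal forebrain, against -5.05, -5.68 and -5.09 in Con. Its cortex levels were -3.18, -3.33 and -2.81 in DKO, against -4.32, -3.92 and -4.48 in Con. All 12 values were well above background, and the difference was 2.02 (SE 0.30), or 4.04-fold, in basal forebrain and 1.13 (SE 0.23), or 2.19-fold, in cortex. DKO mouse 2 alone gave 1.60 and 0.91, and in basal forebrain it was the lowest DKO mouse.

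Fcrla, an Fc receptor-like protein kept inside B cells, read -5.49, -4.24 and -4.54 in DKO basal forebrain, against -9.12, -9.18 and -9.04 in Con. Cortex levels were -5.90, -5.77 and -4.53 in DKO, against -8.71, -8.71 and -8.55 in Con. No Con array was well above background, which bounds the fold at 4.11 or more in basal forebrain and 1.93 or more in cortex. The 2 genes share chromosome 1 with Psen2: by probe start in mm9, Fcrla lies 9.31 megabases and Fcmr 49.4 megabases from the Psen2 probe, and the other 6 genes lie on other chromosomes.

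Cxcr5, the chemokine receptor that draws B cells into lymphoid follicles, read -5.65, -5.81 and -5.13 in DKO basal forebrain, against -9.10, -9.16 and -9.02 in Con. In cortex it read -6.77, -5.08 and -5.45 in DKO, against -8.68, -8.73 and -8.53 in Con. It was well above background on all 3 DKO basal forebrain arrays, on 2 of 3 DKO cortex arrays and on no Con array. The bound on the fold is at least 2.4 in basal forebrain. In cortex the same reckoning gives 1.5, which is no strict bound, since its DKO mean includes an array not well above background.

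Spib, a transcription factor of the ETS family that B cells use, read -3.80, -2.70 and -2.96 in DKO basal forebrain, against -6.67, -6.53 and -6.63 in Con. Levels in cortex were -4.58, -4.29 and -2.96 in DKO, against -6.25, -7.17 and -6.50 in Con, where 1 of 3 arrays was well above background. The difference was 3.46 (SE 0.33) in basal forebrain, where every array was well above background. In cortex the measured difference was 2.69 (SE 0.57), which rests on Con signals mostly not above background. DKO mouse 3 was the highest in cortex, well clear of the other DKO mice, and DKO mouse 2 the highest in basal forebrain. DKO mouse 2 alone lay above Con by 3.91 and 2.35.

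The DKO mice did not keep 1 order across genes and regions. In basal forebrain DKO mouse 1 was the lowest DKO mouse for 6 of 8 genes, and Cxcr5 and Fcmr were lowest in DKO mouse 2. In cortex DKO mouse 1 was lowest for 5 of 8, DKO mouse 2 for Cd79a and Fcmr, and DKO mouse 3 for Cd22. In cortex only DKO mouse 3 shared its slide with Con, and there it lay above the Con mean by 2.86 for Cd79b and 1.43 for Fcmr, against 2.47 and 1.13 for the mean of the 3 DKO mice. These 2 genes were well above background on every array; the other genes that separated in cortex were not well above background on at least 2 of 3 Con cortex arrays.

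Promoters of Spib, Fcrla and Fcmr are shown because these genes separated in both regions and RefSeq's table for GRCm38.p6 holds them: 250 bases before each start site, on the gene's strand. The table also holds Cd79a and Cd22, so 5 of 8 matched, and Ms4a1, Cd79b and Cxcr5 are named only. Capitals mark GAGGAA on either strand (TTCCTC on the strand shown), a purine-rich sequence of the kind the ETS factors PU.1 and Spi-B bind.
Fcrla (chr1:170927584-170927833, minus strand): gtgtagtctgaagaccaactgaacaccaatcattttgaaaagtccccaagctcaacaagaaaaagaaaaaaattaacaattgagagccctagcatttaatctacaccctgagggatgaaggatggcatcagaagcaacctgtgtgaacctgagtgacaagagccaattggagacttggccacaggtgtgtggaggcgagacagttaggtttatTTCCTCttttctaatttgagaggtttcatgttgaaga
Fcmr (chr1:130865527-130865776, plus strand): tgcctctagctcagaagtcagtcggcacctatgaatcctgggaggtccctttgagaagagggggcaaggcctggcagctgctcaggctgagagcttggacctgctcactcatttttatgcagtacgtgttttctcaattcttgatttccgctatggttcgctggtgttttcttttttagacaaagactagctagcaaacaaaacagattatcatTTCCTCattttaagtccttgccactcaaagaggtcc
Spib (chr7:44532072-44532321, minus strand): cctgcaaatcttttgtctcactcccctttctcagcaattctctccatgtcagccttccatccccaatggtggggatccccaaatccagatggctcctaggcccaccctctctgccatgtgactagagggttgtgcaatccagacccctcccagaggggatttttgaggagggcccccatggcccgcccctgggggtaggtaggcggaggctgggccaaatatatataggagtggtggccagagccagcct
GAGGAA occurred once in the windows of Fcrla, Fcmr and Cd79a and not in those of Spib and Cd22, and 23.3% of 32851 promoter windows of this length hold it. The octamer ATTTGCAT, which Pou2f2 binds together with its coactivator Pou2af1, was in none of the 5 windows, and 1.6% of all windows hold it. Both strands were searched, the motifs share no position in these windows, and a match of letters is not a binding site.

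The difference between regions was not used to choose the genes and was tested with limma over all genes. In DKO mice 1 of 8 members passed, Cd22 by its brightest probe. Of all genes 39.9% passed in either direction and 19.3% were higher. Cd22 probe A_51_P448140 differed by 0.74, -0.38 and 0.72 between regions of DKO mice 1 to 3. The brightest probe, which bears the CCAA repeat, was 0.76 higher in basal forebrain than in cortex (SE 0.24, limma adjusted p = 0.0255, higher in 3 of 3 mice). This probe did not separate the genotypes, and the call was lost when either DKO mouse 2 or DKO mouse 3 was left out (adjusted p = 0.0833 and 0.195), with DKO mouse 2 alone (0.65, 0.363), with scaling by the array median (0.0635), with the mean of all 4 probes (0.23, 0.489) and with slide as a block (0.078). Under that block 3 other members passed, each higher in DKO basal forebrain than in DKO cortex: Spib (1.28, limma adjusted p = 0.0146), Fcrla (1.08, 0.0327) and Cd79b (0.65, 0.0358). The slide term of that fit comes only from cortex of DKO mouse 3 against DKO mice 1 and 2. These 3 calls therefore set DKO basal forebrain against cortex of DKO mice 1 and 2, and slide cannot be told from mouse. Ms4a1 was higher in basal forebrain by 0.62, 0.02 and 0.64 in DKO mice 1 to 3 and did not pass (0.43, SE 0.43, adjusted p = 0.456). Fitting mouse as a replicate block, Cd79b also passed, at 0.45 higher in DKO basal forebrain (adjusted p = 0.0388) and 0.43 higher in Con basal forebrain (adjusted p = 0.0396), which makes 2 of 8 in DKO and 3 in Con. Without the block its adjusted p was 0.122 in each genotype. The share of all genes that passed was not taken for either block, so these counts are a description only.

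In Con mice 5 of 8 members were bright enough to enter, and 2 passed, both lower in basal forebrain than in cortex, where 49% of all genes passed and 30.5% were lower. Fcmr was lower by 0.72, 1.76 and 0.61 in basal forebrain of Con mice 1 to 3 (-1.03, SE 0.26, limma adjusted p = 0.00662). Cd79a was lower by 0.87, 0.79 and 0.73 (-0.80, SE 0.27, limma adjusted p = 0.0312). All Con basal forebrain arrays were on slide 1 and all Con cortex arrays on slide 2, so region and slide cannot be told apart within Con. With slide as a block neither passed (limma adjusted p = 0.475 for Fcmr and 0.663 for Cd79a). The slide term of that fit comes from 1 array, cortex of DKO mouse 3, so it is no measure of slide within Con. Fcmr also missed the threshold without Con mouse 2 (-0.66, adjusted p = 0.0898), and Cd79a missed it without any of the 3 Con mice (adjusted p = 0.0599 to 0.125).

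Beyond the 8, a list of 41 other B-cell genes covers more of the lineage, and 35 of them have a probe under a gene symbol. By limma 0 of 31 entering genes were higher past the test in basal forebrain (7 at an unadjusted p under 0.05 in either direction) and 0 of 30 in cortex (7), where 0.023% and 0.00388% of all genes were higher and 4.39% and 18.9% had an unadjusted p under 0.05. Over both regions, with the arrays of a mouse averaged, 0 of 31 were higher (8 at an unadjusted p under 0.05), against 0.141% of all genes (2897 of 26959 genes had an unadjusted p under 0.05). Scaling by the array median brought 2 of them past the test over both regions, Pou2af1 (1.75, adjusted p = 0.0227) and Vpreb3 (2.37, 0.00575), and so did leaving out DKO mouse 1 (2.16, 0.0259, and 2.81, 0.0308). The median difference of the list was 0.21 in basal forebrain and 0 in cortex, against 0 and -0.05 over all genes.

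**Figure D3:**
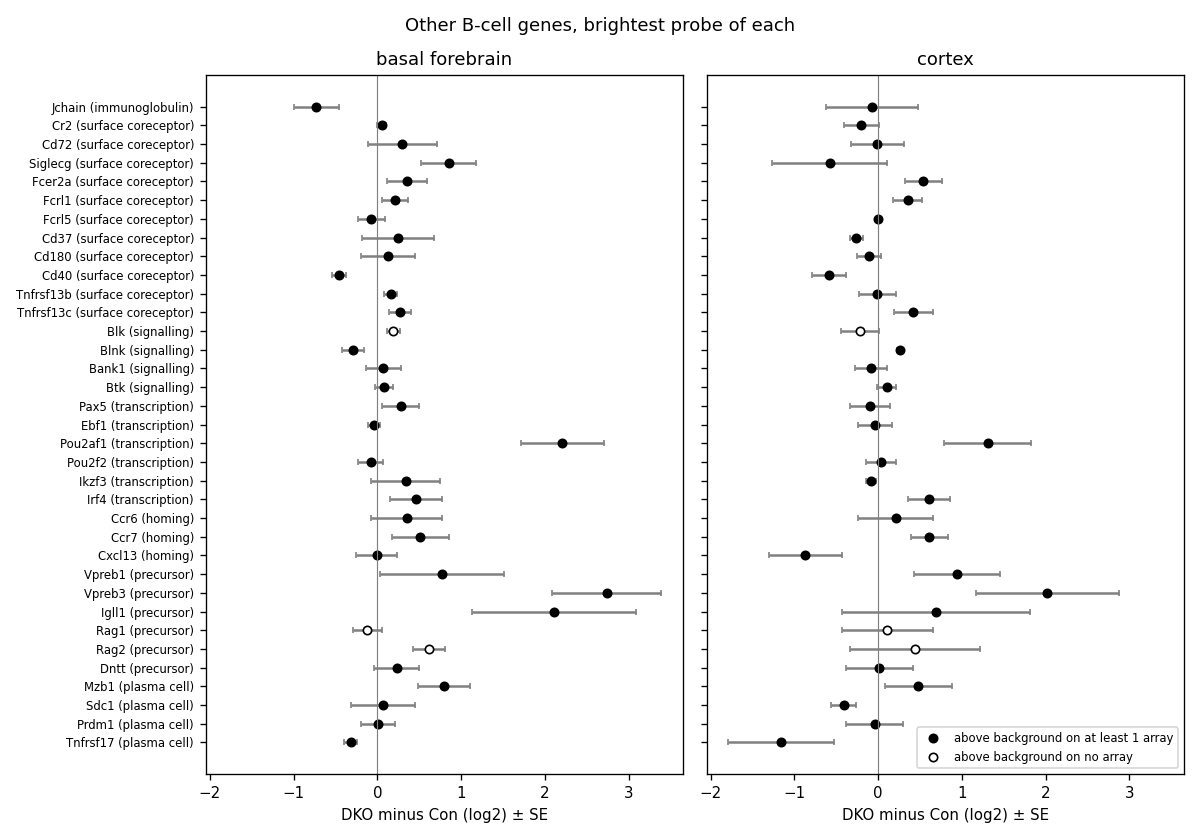
DKO minus Con difference (log2, difference of means of 3 arrays ± SE) of 35 other B-cell genes in basal forebrain and cortex, with the list of each in brackets. Pou2af1, Vpreb3 and, in basal forebrain, Igll1 stand to the right; most others lie near 0, and open points were well above background on no array.

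Of the transcription factors of the lineage, 0 of 6 passed in either region (1 at an unadjusted p under 0.05 in each). Pou2af1, a coactivator that B cells use with octamer-binding factors, differed by 2.21 in basal forebrain and 1.31 in cortex and did not pass (limma adjusted p = 0.596 and 0.261). Pax5, the factor that fixes B-cell identity, differed by 0.28 and -0.10 by its brighter probe. Its dimmer probe, A_52_P429826, was well above background on 3 of 6 DKO arrays and on no Con array. The reckoning used for bounds gives 1.4-fold higher in DKO basal forebrain. That is no strict bound, since the DKO mean includes an array not well above background. Irf4, a factor of activated B cells and plasma cells, differed by 0.46 in basal forebrain and by 0.61, with no overlap, in cortex (limma adjusted p = 0.973 and 0.281). Ebf1, which also marks vascular mural cells in brain, differed by -0.04 in each region.

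Of 6 precursor genes 3 were bright enough to enter, and 0 passed (1 at an unadjusted p under 0.05 in basal forebrain and 2 in cortex). Vpreb3, which binds immunoglobulin chains in developing B cells, read -2.93, -0.83 and -1.89 in DKO basal forebrain, against -4.58, -5.06 and -4.24 in Con. In cortex it read -3.68, -3.99 and -1.34 in DKO, against -4.97, -5.31 and -4.78 in Con, so every DKO array lay above every Con array of its region, and DKO mouse 2 was the highest DKO mouse in 1 region and the lowest in the other. The difference over both regions was 2.38 and did not pass (limma adjusted p = 0.0973). Vpreb1, part of the surrogate light chain of pre-B cells, differed by 0.77 with overlap in basal forebrain and by 0.94 without overlap in cortex (limma adjusted p = 0.973 and 0.264). Dntt, which adds bases at immunoglobulin joints, differed by 0.23 and 0.01. Igll1, also part of that light chain, was well above background on 2 arrays in all, 1 from DKO basal forebrain (mouse 2, -5.38) and 1 from DKO cortex (mouse 3, -5.44). Rag1 and Rag2, which recombine immunoglobulin genes, were above background on no array.

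Among homing and surface genes, Ccr7, a chemokine receptor that guides lymphocytes to lymph nodes, differed by 0.51 in basal forebrain and 0.61 in cortex without passing (limma adjusted p = 0.973 and 0.261), and Siglecg, an inhibitory receptor of B cells, by 0.85 and -0.58 without passing (0.973 and 0.529). Cd40, a receptor for T-cell help, was lower in every DKO array than in every Con array of its region (-0.46 and -0.59, limma adjusted p = 0.973 and 0.273). Tnfrsf13c differed by 0.27 without overlap in basal forebrain and 0.42 in cortex, Fcer2a by 0.35 and 0.54 and Fcrl1 by 0.21 and 0.35. None of them passed. Of 11 surface genes tested, 9 differed above 0 in basal forebrain and 3 in cortex, beside 51.1% and 41.5% of all genes. Of the plasma-cell genes, Mzb1 differed by 0.80 and 0.48 and Tnfrsf17 by -0.32 and -1.16, without passing. By their brightest probes, the surface genes Cr2, Cd72, Fcrl5 and Cd180 and the signalling genes Btk and Bank1 differed by 0.30 or less in either direction in both regions. The other 3 probes of Cd180 differed by -1.83, -1.34 and -0.69 in cortex, the first 2 without overlap, and by -0.39, 0.15 and 0.06 in basal forebrain, and none passed where it was tested.

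Immunoglobulin constant-region probes carry transcript IDs for names in the files, so they were found by their description, a choice made after values were seen. Probes for lambda constant 3 and heavy constant delta passed for genotype over both regions. Lambda constant 3, a light chain, read -2.74, -2.72 and -2.08 in DKO basal forebrain by probe A_51_P483576, against -5.70, -5.78 and -5.35 in Con. Cortex levels were -3.24, -1.51 and -2.26 in DKO, against -5.74, -5.81 and -5.66 in Con. It passed in basal forebrain with each probe tested by itself (3.10, limma adjusted p = 0.0305), where 0.0198% of all probes were higher, but not in cortex (3.40, 0.0868), where 0.00254% were. It also passed over both regions (3.25, limma adjusted p = 0.00425), against 0.0985% of all probes, as did its second probe (3.61, 0.00517), and DKO mouse 2 alone lay 2.89 above Con in basal forebrain and 4.23 above it in cortex by the first probe. Heavy constant delta, the IgD chain of mature B cells that have not met antigen, passed over both regions by both of its probes (1.73 and 1.70, adjusted p = 0.00517 and 0.0168). By probe A_55_P2734227 it read -2.04, -3.12 and -2.56 in DKO basal forebrain, against -4.40, -4.42 and -4.54 in Con. The other probe, A_51_P266248, was well above background on 6 DKO arrays but on only 3 Con arrays. It entered the test only through the DKO groups, where it is high, so its call adds no separate evidence.

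Lambda constant 1 was higher in every DKO array than in every Con array of its region (1.90 and 2.02) and did not pass (limma adjusted p = 0.982 and 0.214). Kappa constant, the other light chain, was read by 2 probes that disagreed. Probe A_55_P2060897 differed by 0.47 without overlap in basal forebrain and by 1.63 with overlap in cortex (limma adjusted p = 0.982 and 0.249), and A_55_P2727321 by -0.01 and 0.20. The 3 probes for heavy constant mu, the IgM chain, differed by 0.04 to 0.65 in basal forebrain and -0.66 to -0.20 in cortex; 1 of them, A_55_P2745692, separated in basal forebrain (0.65), and none passed. Heavy constant alpha, the IgA chain, read -0.87, -0.77 and -2.01 in DKO basal forebrain by probe A_51_P509679, against -0.03, 0.38 and 0.51 in Con. The difference of -1.50 did not pass (limma adjusted p = 0.982), and in cortex the same probe differed by 0.42 (SE 0.69) with overlap. Jchain, which joins IgA and IgM units, differed by -0.73 in basal forebrain and -0.07 in cortex. Heavy constant gamma 1, 2B and 2C were lower in DKO in both regions, and none passed where tested. Gamma 2B differed by -1.68 without overlap in basal forebrain and by -0.45 with overlap in cortex. The 3 gamma 2C probes differed by -0.94 to -0.38 and by -0.24 to -0.15, with overlap except for A_55_P1956598 in basal forebrain. Gamma 1 differed by -0.41 without overlap in cortex, and its DKO basal forebrain signals were not well above background. Gamma 2C followed region: its 3 probes were lower in basal forebrain than in cortex by 2.84 to 3.25 in DKO and 2.18 to 2.93 in Con. The 3 passed in each genotype (largest limma adjusted p = 5.57e-06 in DKO and 1.52e-05 in Con), where 18.5% and 26.7% of all probes were lower; within Con the slide differs with region here too.

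**Figure D4:**
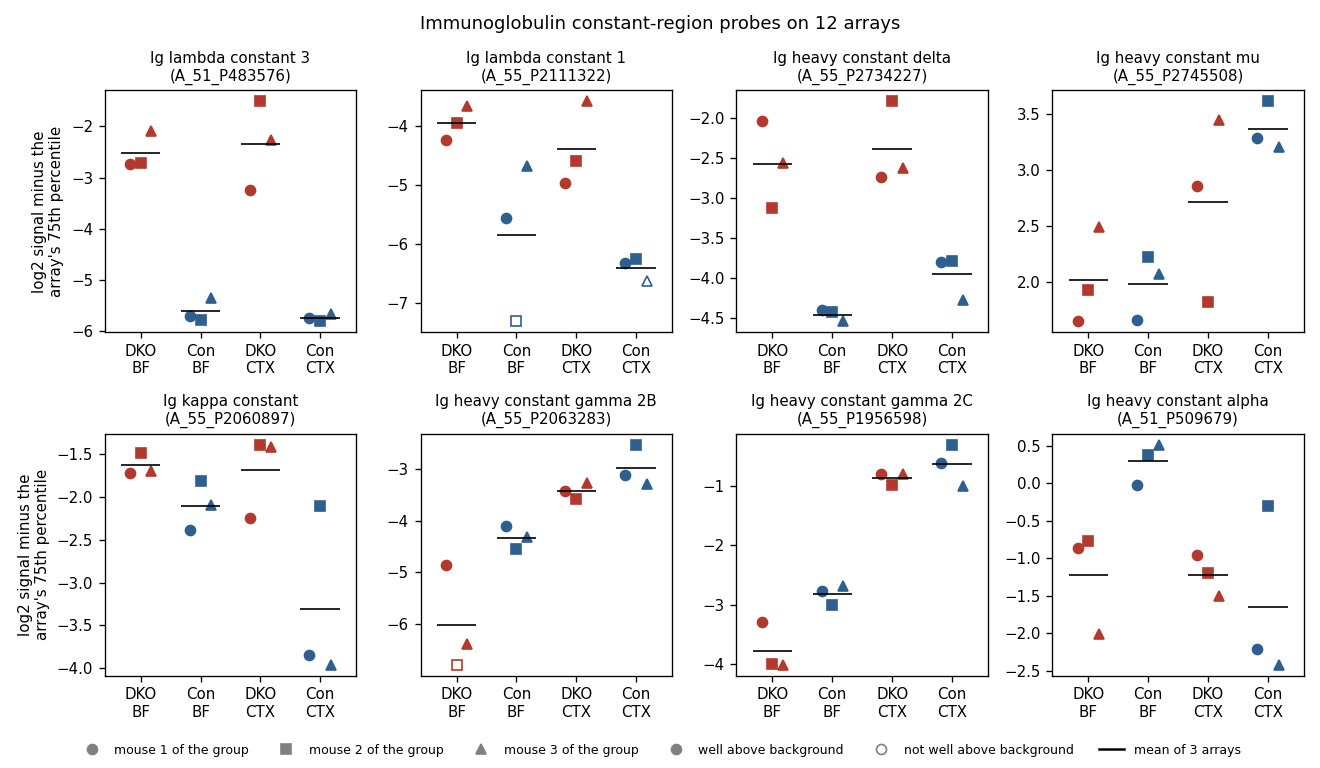
Level of 8 immunoglobulin constant-region probes (log2 signal minus the array's 75th percentile) on the 12 arrays; symbols as for the 8 genes, with open symbols not well above background. Lambda constant 3 and heavy constant delta lie higher in DKO in both regions, and the gamma probes are lower in basal forebrain than in cortex in both genotypes.

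Genes of other blood cells moved with genotype as well. Over both regions 5 of 10 entering neutrophil genes and 7 of 7 red-cell genes were higher in DKO past limma's test, where 0.141% of all genes were, among them S100a8 (3.50, adjusted p = 0.00811) and Slc4a1, the red-cell anion exchanger (2.38, 0.000984). The mean level of the 11 neutrophil genes was -2.77 to -1.69 in DKO basal forebrain, against -4.57 to -4.07 in Con, and -2.30 to -1.10 in DKO cortex, against -4.51 to -3.72 in Con. That of the 9 red-cell genes was -0.11 to 1.43 in DKO basal forebrain, against -1.62 to -1.44 in Con, and 0.04 to 0.90 in DKO cortex, against -1.49 to -1.19 in Con. Of the T-cell genes, 0 of 10 passed (1 at an unadjusted p under 0.05, beside 2897 of 26959 genes in all): Cd3e differed by -0.01 in basal forebrain and -0.34 in cortex, and Cd2 by 1.02 and 1.81 without passing (adjusted p = 0.111 over both regions). Genes were also ranked by how close their centred profile over the 12 arrays lay to the mean profile of the 8 members, 24941 in all, with Cxcr5 not ranked since it did not enter in cortex. Among the nearest were the red-cell genes Slc4a1, Ahsp, Hbb-bt, Hbb-b2 and Alas2 and the neutrophil gene Ngp, besides Apol11b, Pou2af1, Plac8 and Cytip, at root mean square distances of 0.533 to 0.729. The mean profile carries the genotype difference on which the members were chosen, and the distance depends on its size, so this is a description only. The members themselves ranked 2 (Cd79b), 3 (Spib), 12 (Fcmr), 17 (Fcrla), 507 (Cd79a), 1433 (Cd22) and 22597 (Ms4a1). The labels' protocol names cervical dislocation, dissection and freezing.

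The DKO mice ranked differently by these lists. The mean of the 8 B-cell genes was -3.69, -3.35 and -3.15 in basal forebrain of DKO mice 1 to 3, while the neutrophil mean was -1.69, -2.64 and -2.77 and the red-cell mean 1.43, -0.11 and 0.59. In cortex the B-cell mean was -4.18, -3.76 and -3.40, the neutrophil mean -1.74, -1.10 and -2.30 and the red-cell mean 0.20, 0.90 and 0.04. DKO mouse 1 was lowest of the DKO mice for B-cell genes in both regions and highest for neutrophil and red-cell genes in basal forebrain. In cortex DKO mouse 2 was highest for neutrophil and red-cell genes and in the middle for B-cell genes. An order of 3 mice is given as a description only. DKO mouse 2 by itself lay above all 3 Con mice of its region by each of the 3 lists. What part blood content has in the B-cell values was not tested.

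**Figure D5:**
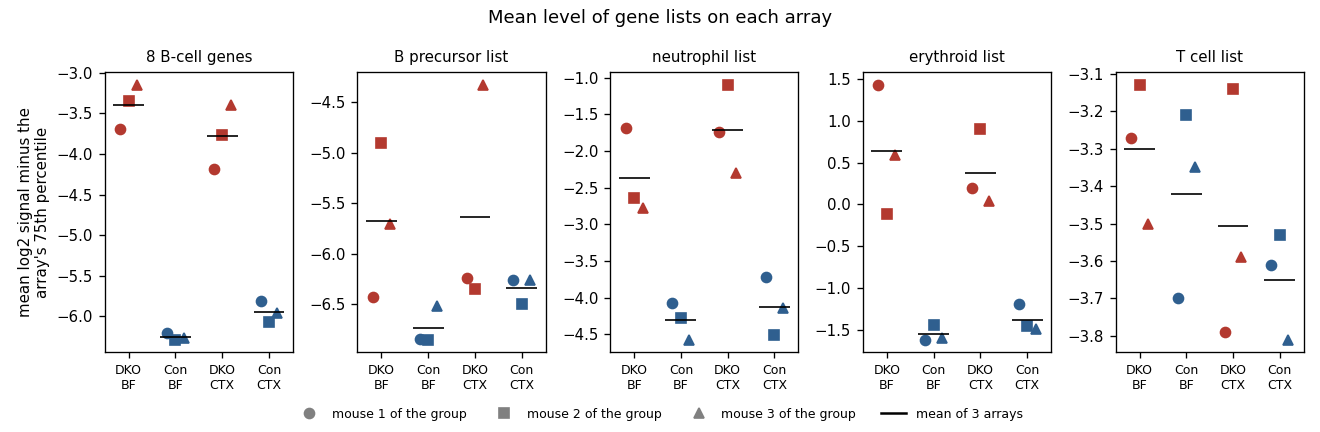
Mean level (log2 signal minus the array's 75th percentile) of the 8 B-cell genes and of 4 other lists on each array, by genotype and region, with symbols for the mouse of a group and bars for the mean of 3 arrays. The neutrophil and red-cell lists also lie higher in DKO, and T-cell means overlap between genotypes. The order of the DKO mice varies between lists and regions.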

How the data were processed

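Total RNA was hybridised in 1 colour to 12 Agilent mouse expression arrays (SurePrint G3, version 2). The processed intensity per spot is, per the file headers, background-subtracted and detrended by Feature Extraction 10.7.1.1 and not scaled between arrays. The authors' deposited normalized log2 values have identical sorted values on all arrays and served as an alternative. Another 12 per-sample columns of the deposited table were not used.

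Log2 intensity minus the array's 75th percentile was analysed for 56568 probes, after leaving out 37 flagged ones. RefSeq symbols were found for 32994 of 56605 probes. The brightest probe on average stood for its gene. To enter a comparison it had to be well above background on every array of 1 of the groups or more. Differences were tested with limma 3.58.1 in R 4.3.3 (lmFit, eBayes with a variance trend), with Benjamini-Hochberg adjustment over all genes of a comparison and a threshold of 0.05. Each region was fitted on its 6 arrays, both regions on 6 means per mouse, and region differences on all 12 arrays. Replicates are separate mice, and their number limits precision. The fits were tested on simulated data.

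The members and lists were chosen with earlier results of these data known. Named genes are the members with every probe, Psen2, Chat and sex-linked genes, list genes past a test or nearest to it, and near profiles; others, including the immunoglobulin probes, were named after values were seen. Deviations of the arrays of the same mouse correlated at 0.01, 0.20 and -0.05 in DKO and 0.23 to 0.37 in Con; the pairing is by animal, per the labels. Alternatives changed background correction, scaling, probe choice, filter, variance trend, slide block, replicate block and mice. Results for some further genes, B-cell genes among them, are not reported here.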

Additional observations from a re-analysis of the deposited data

Results flagged for a closer look

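Ms4a1, by probe A_55_P2802151, was higher in basal forebrain than in cortex in every DKO mouse (mean 0.43) and lower in every Con mouse (mean -0.56). The Con values were well above background on no array, Con regions lay on different slides, and the opposite directions were not tested as a difference. Cxcr5 and Fcrla, equally undetected in Con, also read lower in basal forebrain of every Con mouse, by 0.41 to 0.50 and 0.42 to 0.49. In DKO mouse 2 the Ms4a1 difference was only 0.02.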

How the results depend on the processing

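The median difference of the 8 genes stayed positive under every alternative run. It was 1.00 in basal forebrain, 0.53 in cortex and 0.76 over both regions with normexp background correction, whose offset of 50 compresses dim probes. With slide as a block it was 3.02 in cortex and 3.15 over both. These are values of DKO mouse 3 alone against Con, since no other DKO mouse had cortex on Con's slide. They cannot separate slide from mouse. Leaving out 1 mouse gave 2.83 to 3.12, 2.24 to 2.87 and 2.57 to 3.04. The genotype difference was larger in basal forebrain than in cortex by a median of 0.74 (0.64 to 0.81 leaving out 1 mouse), but by 0.34 with quantile normalization and with the authors' values. Over all genes this median was 0.06, with 58.3% above 0. Con signals not above background differed by region: Cxcr5 averaged -9.09 in basal forebrain and -8.65 in cortex, Fcrla -9.11 and -8.66. Of members well above background on every array, Cd79b gave 0.02, Cd22 0.41 and Fcmr 0.88. Con regions also lay on different slides. Members past the region test in DKO numbered 1: 0 with probe means, median scaling or DKO mouse 2 only, 2 with the replicate block, 3 with slide as a block and 0 to 1 leaving out 1 mouse. In Con they numbered 2: 1 with quantile or the authors' values, 0 with slide as a block and 0 to 3 leaving out 1 mouse. Shares of all genes past the region test were not taken for these alternatives, so nothing is read from the counts. Other B-cell genes higher past the test numbered 0 in basal forebrain under every alternative run with more than 1 DKO mouse, each probe by itself (added after seeing the data) included. Over both regions they numbered 0, but 2 with median scaling and 0 to 2 leaving out 1 mouse. Few genes of any kind passed: leaving out 1 mouse gave 0 to 24 in basal forebrain and 20 to 177 over both regions. A count of 0 therefore does not show that the B-cell genes did not differ. In cortex, fits with slide as a block or with DKO mouse 2 only set 1 DKO mouse against Con, so their counts are left out. The cortex count was otherwise 0, but 0 to 2 leaving out 1 mouse, where without DKO mouse 3 9759 of all genes passed. The DKO and Con arrays then lie on different slides, and the cause was not tested. Replicate numbers pair no animals between genotypes, and with the replicate block these 3 counts stayed at 0.

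With 3 mice a group and several members dim in Con, folds against Con are bounds, and their dim levels carry no order. Cre, Psen2 dose and the floxed deletion cannot be told apart here. Sex as read from the arrays and, in cortex, slide also differ in part with genotype. DKO mice 1 and 3 read as female, and cortex of DKO mice 1 and 2 was on another slide than that of Con.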
